A study of Yarrowia lipolytica with 9 samples.

Results

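The transcriptome of the Yarrowia lipolytica strain Yl_5_2, which carries mutations in more than one added copy of Yl-SPT15, was compared with that of the control strain Yl_5_1. The strains compared have 3 samples each, 6 of the 9 samples in the series, and the comparison took every feature with at least 10 counts in at least 3 of these 6 samples. That count limit kept 6026 of 6145 features and left out 119, of which 9 had no count in any sample. No direction or size of change entered the choice.

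Both strains derive from ATCC 201249 (a MATA laboratory strain with mutant alleles of lys8, leu2 and ura3 and with the tagged gene PEX17-HA) and carry the heterologous beta-carotene genes crtE, crtB, crtI and crtY, integrated at the ribosomal DNA. Both also received 5 additional Yl-SPT15 cassettes, driven by the GPAT, YAT1, XPR2, FBA and LEU promoters and directed to the GUT2 site, while the native Yl-SPT15 gene remained. The cassettes of Yl_5_1, labelled ctrl in the files, are wild type. In Yl_5_2, labelled Y5_2, module 1 carries E208A with 1 further base change that leaves the protein unchanged, and module 5 carries P25T, A213T and A216V, 4 protein changes in all in a protein of 227 residues (positions count from 1 at the first residue). Yl_5_3, labelled Y5_3, has the same background with a single mutation in 1 cassette, and its 3 samples entered the fit that set the scaling and the spread. Its values are otherwise given only beside those of Yl_5_2. Each strain is 1 picked colony. Yl_5_2 was picked by eye for its deep yellow color and Yl_5_3 for its light yellow color. Effects of the cassettes and of anything else particular to a clone therefore cannot be told apart. All samples were grown for 96 h at 28 °C in SC medium without uracil and leucine. Nothing in the labels states that the 3 samples of a strain came from separate cultures, so the p-values below measure only the spread between these samples, which may be technical.

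SPT15 encodes the TATA-binding protein, which in Saccharomyces cerevisiae is required for transcription by every nuclear RNA polymerase. It binds promoter DNA as part of larger complexes such as TFIID, and its activity is set by partners that load it on promoters or remove it from them. Mutated forms of the gene are used in yeast strain engineering because a change in this single factor can alter the transcription of many genes at once.

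The total count was 17771894 to 23288547 per sample of Yl_5_1 and 17912396 to 18788500 per sample of Yl_5_2. At least 10 counts were found for 5985 to 6014 features in the samples of Yl_5_1 and for 6023 to 6026 in those of Yl_5_2. Replicates lay close together: the median coefficient of variation over features was 4.53% in Yl_5_1 and 4.64% in Yl_5_2. Of the 6026 tested features, 5848 carry an XM accession and 178 are additional transcripts with other identifiers, such as Novel00168. The files do not pair accessions with gene names or functions, and the reference gives a locus tag for 5385 of the tested accessions and no other name, so features are given below by accession and locus tag, with no role. Yl-SPT15 itself and its copies were not analysed here. Its coding length is 684 bases. Of the 14 tested features of that length, 8 were called (57.1%, against 57.6% of all tested features), and the 14 had log2 fold changes from -0.53 to 0.80.

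More than 50% of the transcriptome differed between Yl_5_2 and Yl_5_1, mostly by small amounts. At an adjusted p-value under 0.05 (edgeR quasi-likelihood test, Benjamini-Hochberg adjustment over all 6026 features), 3470 features changed, which is 57.6% of those tested, 1655 of them higher in Yl_5_2 (27.5%) and 1815 lower (30.1%). The 3 samples of Yl_5_2 did not overlap with the 3 of Yl_5_1 in 3708 features (61.5%), 1805 of them higher in Yl_5_2 (30% of all) and 1903 lower (31.6%). The median absolute log2 fold change of the changed features was 0.30, against a median standard error of 0.056 over all features, and 94.3% of the changed features moved by less than 2-fold. Over all tested features the log2 fold change had a median of -0.01, with 25% of features below -0.19 and 25% above 0.19.

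Small and large changes, with TMM scaling, differed in their direction. Among changed features with an absolute log2 fold change up to 0.25, 539 rose and 785 fell, and between 0.25 and 0.5, 610 rose and 844 fell. Above that size rises were the more frequent: 341 against 153 between 0.5 and 1, 149 against 29 between 1 and 2, and 16 against 4 above 2. Rises thus made up 40.7% of the smallest class and 83.7% of the class between 1 and 2. The classes above 1 include at least 8 rises that reached the count limit through Yl_5_2 alone. They also include at least 1 fall that did so through Yl_5_1 alone. These size classes were counted with TMM factors only, and the split over all changed features depended on how the samples were scaled. With TMM factors, 47.7% of the changed features rose, and with total counts alone 61.7% did, while in the stringent class described next the share of rises was 83.0% and 87.1%. With total counts 2155 features rose and 1339 fell, of which 169 and 25 were stringent. Outside the stringent class rises were then the more frequent, while with TMM factors falls were.

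Under a stringent condition, requiring both a change above 2-fold and an adjusted p-value under 0.001, 182 features were called (3.02% of those tested). Of these, 151 were higher in Yl_5_2 (2.51%) and 31 were lower (0.514%). In none of the 182 did the samples of the strains overlap, which was also so in 61.5% of all tested features. The stringent limits make this likely in advance. The limit of 2-fold ran between XM_503563.1, at a log2 fold change of 1.001, and XM_500147.1, at 0.999. A further 18 features moved by more than 2-fold without meeting the adjusted p-value. The stringent risers had a median level in Yl_5_1 of 13.1 CPM (counts relative to the TMM-scaled library size), from 0.115 to 1114.4 CPM, and the stringent fallers one of 70.9 CPM, from 0.938 to 3545 CPM, while the median over all tested features was 59.4 CPM. A level of 100 CPM or more in Yl_5_1 was found for 15 of the 31 fallers and 25 of the 151 risers (48.4% and 16.6%, against 35.7% of all tested features). The level in Yl_5_1 also enters the fold change that chose these features, which by itself makes risers low and fallers high there. By mean FPKM over the 6 samples, the lowest 10% of features held 45 risers and 5 fallers. The highest 10% held 15 risers and 6 fallers.

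**Figure D1:**
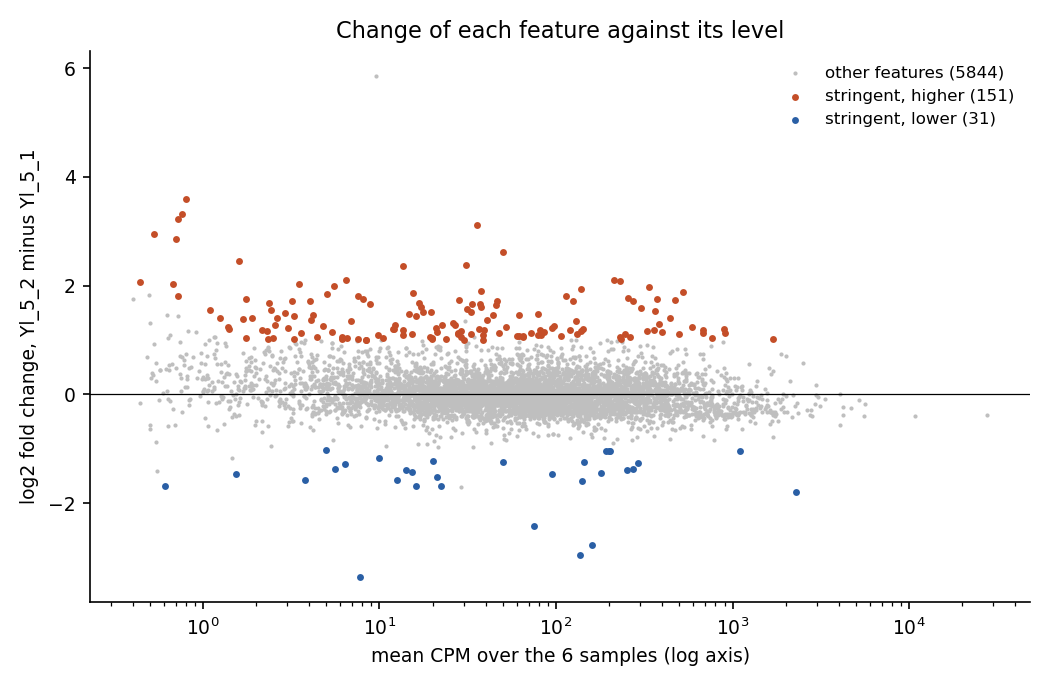
Log2 fold change of each of the 6026 tested features (Yl_5_2 minus Yl_5_1) against its mean level over the 6 samples in TMM-scaled CPM on a log axis. The 151 stringent risers outnumber the 31 stringent fallers, but among the 100 features with the highest mean level there is 1 of each. The grey point near 6 is XM_504938.1, whose change did not pass the test.

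Among stringent features whose mean reached 10 CPM in the higher strain, XM_504750.1 rose the most, and for it the reference holds no locus tag. Its level was 6.48, 7.39 and 8.34 CPM in the samples of Yl_5_1 and 59.0, 61.5 and 70.4 CPM in those of Yl_5_2. The samples of the strains lay far apart, with a log2 fold change of 3.12 ± 0.10 (SE, n = 3 per strain, edgeR adjusted p = 5.25e-12). The next was XM_505246.1 (YALI1_F14136g), at 15.3, 13.98 and 12.5 CPM in Yl_5_1 and 82.8, 84.7 and 91.6 CPM in Yl_5_2, a log2 fold change of 2.62 ± 0.14 (SE, edgeR adjusted p = 6.80e-07). Another 5 stringent features rose by more than XM_505246.1 but stayed under 10 CPM in both strains, and are not named.

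The largest fall among the same features was that of XM_499705.1 (YALI1_A03258g), a short feature with a coding length of 540 bases. It was at 12.6, 14.5 and 15.5 CPM in Yl_5_1 and at 1.33, 1.39 and 1.37 CPM in Yl_5_2. The log2 fold change was -3.36 ± 0.15 (SE, edgeR adjusted p = 1.58e-11), which is 10.3-fold lower. XM_504340.1 (YALI1_E28779g) came next, at 162, 293 and 269 CPM in Yl_5_1 and 30.8, 28.9 and 34.0 CPM in Yl_5_2. Its control samples were widely spread, with an SD of 69.6 CPM, and the log2 fold change was -2.95 ± 0.25 (SE, edgeR adjusted p = 6.53e-05). In Yl_5_3 this feature was also low, at a mean of 48.2 CPM, and no difference between the mutant strains was called (edgeR adjusted p = 0.0752).

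Further features are named here after their values were seen, most of them to show stringent changes at higher levels. The faller with the highest level in Yl_5_1 was XM_503602.1, at 3399, 3329 and 3907 CPM in Yl_5_1 and 1082, 911 and 1054 CPM in Yl_5_2. Its log2 fold change was -1.80 ± 0.07 (SE), and the sample ranges were far apart. XM_504118.1 fell from 269, 263 and 304 CPM to 44.6, 33.4 and 45.0 CPM. XM_504620.1 (YALI1_E36619g) fell from 115, 114 and 150 CPM to 24.6, 21.97 and 23.8 CPM. Both of these falls exceeded 5-fold, with log2 fold changes of -2.77 and -2.42, and in both the highest sample of Yl_5_2 stayed below every sample of Yl_5_1.

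Among rises at higher levels, XM_500206.1 (YALI1_A19398g) lay close together within each strain, at 86.2, 82.4 and 93.7 CPM in Yl_5_1 and 361, 367 and 383 CPM in Yl_5_2, a log2 fold change of 2.08 ± 0.05 (SE, edgeR adjusted p = 4.84e-15). XM_502242.1 (YALI1_D00474g) rose from 196, 252 and 229 CPM to 770, 922 and 786 CPM. At a lower level, XM_503821.1 (YALI1_E14274g) rose from 9.84, 10.7 and 9.24 CPM to 53.7, 46.4 and 55.0 CPM. The log2 fold changes of XM_502242.1 and XM_503821.1 were 1.87 and 2.38. In both of them the lowest sample of Yl_5_2 was over 3-fold above the highest sample of Yl_5_1.

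**Figure D2:**
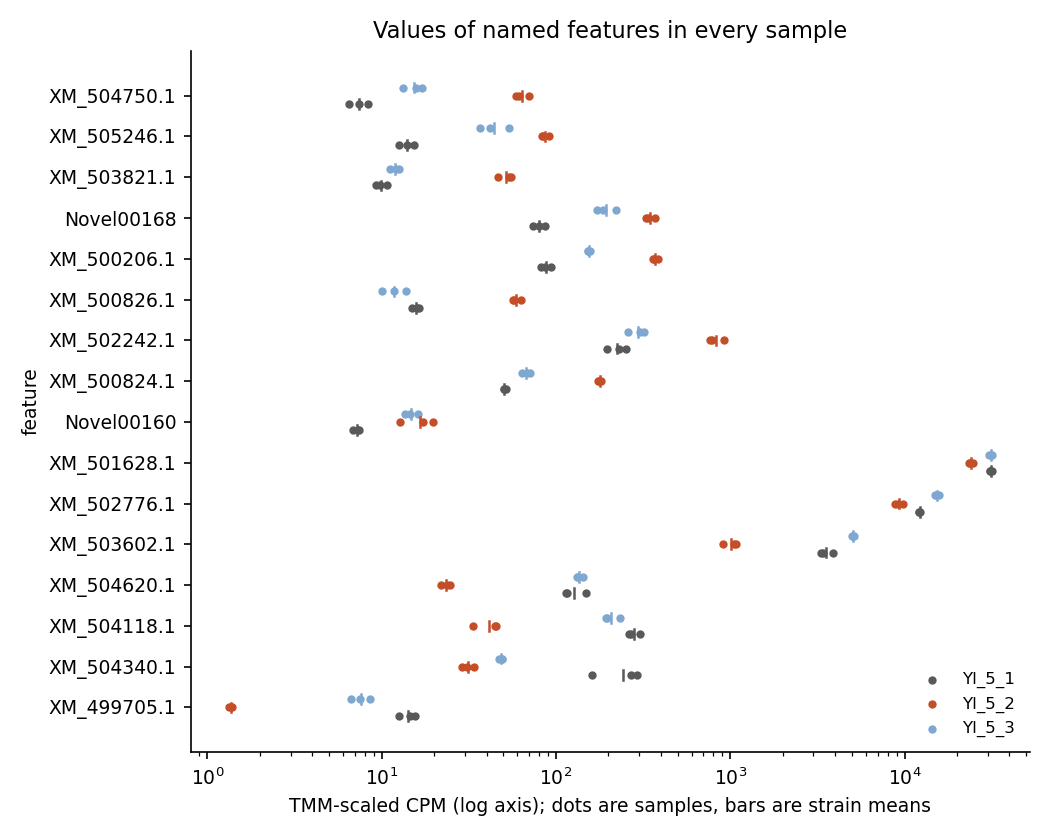
TMM-scaled CPM (log axis) of 16 named features in all 9 samples. Dots are samples, bars are the means of the 3 samples of a strain, and features are ordered from the largest rise in Yl_5_2 at the top to the largest fall at the bottom. In every feature drawn the dots of Yl_5_2 lie apart from those of Yl_5_1, and in XM_500826.1, XM_503602.1 and XM_502776.1 the dots of Yl_5_3 lie on the opposite side of Yl_5_1. The features were named by a rule that required samples without overlap, or after their values were seen.

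The change also varied with the level of the feature. When the tested features were divided into 10 level classes of 602 or 603 by their mean FPKM over the 6 samples, the lowest level class (0.108 to 6.46 FPKM) had a median log2 fold change of 0.20. In it 198 features rose (32.8%) and 46 fell (7.63%). The class held 45 of the 151 stringent risers (7.46% of the class, against 2.51% of all tested features) and 5 of the 31 stringent fallers. The highest level class (298 to 20348 FPKM) had a median of -0.15, with 130 features higher (21.6%) and 298 lower (49.4%). The 8 classes between them had medians from -0.03 to 0.04. The median standard error was 0.16 in the lowest level class and 0.046 in the highest, so a low feature needed a larger change to be called.

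The count limit could itself favour risers among low features, since a feature may pass through 1 strain alone. This was the case for 13 features that reached 10 counts in the samples of Yl_5_2 only and for 4 that did so in Yl_5_1 only. All 17 are in the lowest level class, 8 of the 13 are stringent risers and 1 of the 4 is a stringent faller. Without these 17 features the median log2 fold change of the lowest level class was 0.19, with 31.7% of its features higher and 7.51% lower. The class then held 37 stringent risers (6.31%) and 4 stringent fallers.

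**Figure D3:**
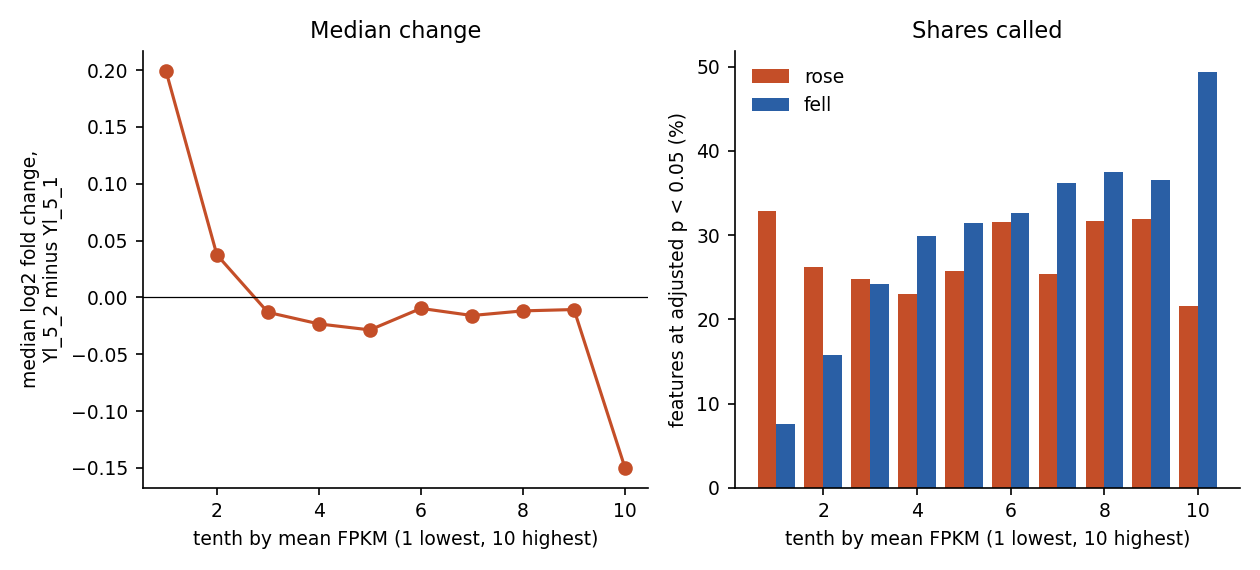
Features divided into 10 classes by mean FPKM over the 6 samples, from lowest (1) to highest (10). Left, the median log2 fold change of each class (Yl_5_2 minus Yl_5_1), 0.20 in the lowest, -0.15 in the highest and near 0 between. Right, the percentage of each class that rose or fell at an adjusted p-value under 0.05, with 32.8% rising in the lowest class and 49.4% falling in the highest.

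The pattern was present in each sample of Yl_5_2. For every sample the median log2 ratio to the control mean (for a control sample, to the mean of the other controls, with a pseudocount of 0.5 CPM) was taken in the lowest and in the highest level class. The lowest minus the highest was 0.31, 0.27 and 0.37 in the samples of Yl_5_2 and 0.05, -0.01 and -0.05 in those of Yl_5_1, so the strains did not overlap. The means differed by 0.32 on the log2 scale. A two-sided permutation of these values gave p = 0.1, the smallest value that 3 samples against 3 can give. The controls were the reference for both strains, so the control values lie around 0 by construction. The values of the strains are therefore not exchangeable, and this permutation p is not exact. In the samples of Yl_5_3 the same value was -0.08, -0.08 and -0.10. In the direct contrast between the mutants, from the same fit and over the same level classes, the median log2 fold change was 0.22 in the lowest level class and -0.19 in the highest, where 56.6% of the features were lower in Yl_5_2.

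The most abundant transcripts took a smaller share of all counts in Yl_5_2. The 10 features with the highest mean level over the 6 samples held 8.42%, 8.35% and 8.54% of the counts in the samples of Yl_5_1 and 6.999%, 7.12% and 7.03% in those of Yl_5_2. The 100 highest held 24.97%, 25.06% and 25.03% of the counts in Yl_5_1 and 22.6%, 23.05% and 22.2% in Yl_5_2. Both differences had an exact two-sided permutation p of 0.1, the smallest possible. In Yl_5_3 the same 100 features held 26.4% to 26.8%. Of the 10 highest features, 8 fell and 0 rose, with a median log2 fold change of -0.32. Of the 100 highest, 61 fell and 12 rose, with a median of -0.22, while 30.1% of all tested features fell and 27.5% rose.

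The single most abundant feature, XM_501628.1 (YALI1_C12642g), had a mean of 31257 CPM ± 305 (SD, n = 3) in the control. In Yl_5_2 the mean was 23959 CPM ± 711 (SD, n = 3), which is a log2 fold change of -0.38. It alone held 3.10% to 3.14% of the counts of a control sample and 2.45% to 2.56% of those of a Yl_5_2 sample. XM_502776.1 (YALI1_D16249g) fell by a similar factor, with a log2 fold change of -0.40, from 12202 to 9243 CPM, and stood at 15261 CPM in Yl_5_3. These falls were several times their standard errors but far below the 2-fold limit of the stringent condition.

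**Figure D4:**
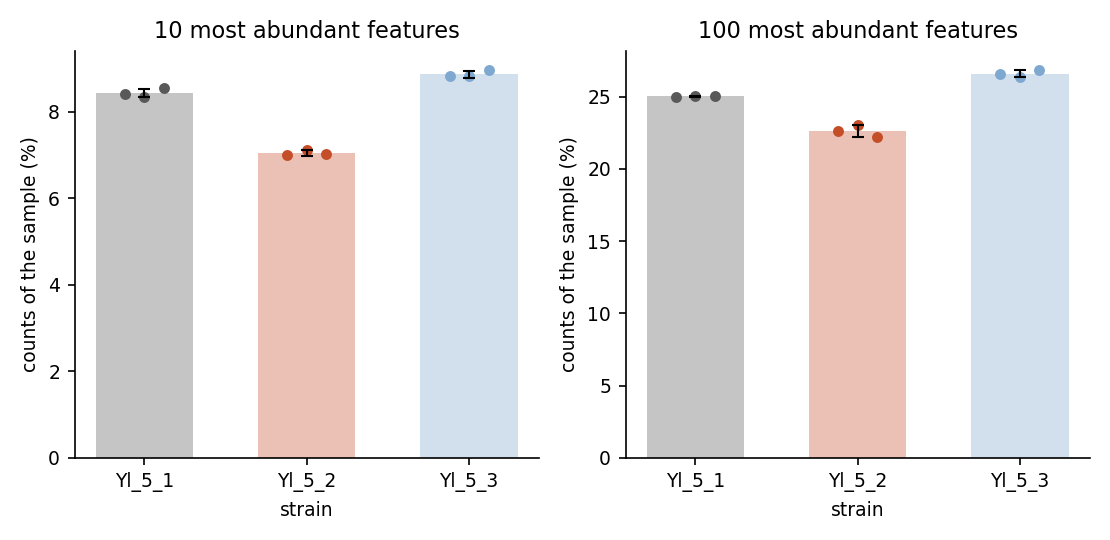
Share of all counts of a sample, in percent, held by the 10 (left) and the 100 (right) features with the highest mean level over the samples of Yl_5_1 and Yl_5_2. Dots are samples, bars are strain means and error bars are the SD of 3 samples. The samples of Yl_5_2 lie between 6.999% and 7.12% on the left and between 22.2% and 23.05% on the right, below every sample of the other strains.

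The share of rises was lowest among the shortest features. Among the features of the shortest of 10 length classes (78 to 519 bases), 17.1% rose and 27.9% fell, with a median log2 fold change of -0.07, while in the other 9 length classes 24.05% to 32.3% rose and 28.7% to 33.1% fell, and over all features 27.5% rose and 30.1% fell. These short features were abundant, with a median level of 128 FPKM. The level class of 102 to 158 FPKM had 31.7% of its features higher and 37.5% lower, with a median log2 fold change of -0.01. Whether length, apart from level, went with the change was not tested. The shortest class also had the largest median standard error of the 10 length classes, 0.076, against 0.056 over all features. The longest class (2739 to 19617 bases) had a median of 0.02 and held 6 of the stringent risers (0.995% of the class, against 2.51% of all features), while each of the other length classes held 12 to 20.

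The additional transcripts without an XM accession changed about as often in the upward direction as the features with accessions. Of the 178 tested, 49 rose (27.5%, the same as the 27.5% of all features) and 37 fell (20.8%, against 30.1% of all features). The stringent condition was met by 2 of them, both rises (1.12%, against 2.51% of all features), and their median standard error was 0.076, against 0.056 over all features. Novel00168, of 3499 bases, was at 86.4, 79.7 and 73.5 CPM in Yl_5_1 and at 329, 372 and 336 CPM in Yl_5_2, a log2 fold change of 2.11. Novel00160, of 458 bases, was at 6.82, 7.28 and 7.43 CPM in Yl_5_1 and at 17.3, 19.7 and 12.7 CPM in Yl_5_2, a log2 fold change of 1.21, and in Yl_5_3 it stood at a similar mean of 14.8 CPM. The 463 accessions with no entry in the reference showed 26.6% rises and 21.4% falls.

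Features that lie next to each other in the genome shared little of their change. Over 5379 pairs of adjacent genes in the order of the RefSeq reference (strain W29, genes not tested being skipped), the log2 fold changes had a Pearson r of 0.077 and a Spearman rho of 0.085 across genes, which are not independent replicates and share the same 6 libraries. At 2 genes apart r was 0.015, and at 10 genes apart it was -0.003. Stringent risers stood beside another stringent riser in 14 of 134 cases (10.4%), and 264 of all 5385 placed genes had such a neighbour (4.90%). These are 7 adjacent pairs, all with both members higher, and 0 adjacent pairs had stringent members of opposite direction. One of the 7 includes XM_503642.1, which reached the count limit through Yl_5_2 alone. Without all features that passed through 1 strain alone, 6 pairs were left, with 12 of 127 risers (9.45%) and 250 of 5375 genes (4.65%) beside a stringent riser.

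One pair, chosen after its values were seen, was XM_500824.1 (YALI1_B17261g) and XM_500826.1 (YALI1_B17363g). The former rose from 50.2, 51.5 and 50.1 CPM to 177, 182 and 175 CPM, and the latter from 16.4, 14.8 and 15.99 CPM to 57.5, 56.4 and 63.0 CPM. Both have a coding length of 2160 bases, and whether they share sequence, and so reads, was not tested. In Yl_5_3 they parted, since XM_500824.1 was at 67.6 CPM and XM_500826.1 at 11.8 CPM. The pair with the most abundant member was XM_504260.1 (YALI1_E26223g) and XM_504261.1 (YALI1_E26229g), which rose from 38.8 to 81.5 CPM and from 538 to 1244 CPM. Whether reads were counted by strand is not given in the sources used here, so reads from overlapping neighbours cannot be told apart.

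Most of the stringent changes of Yl_5_2 differed from Yl_5_3 as well. Between the mutants, 4071 features (67.6%) differed at an adjusted p-value under 0.05, and 347 (5.76%) met the stringent condition, 308 of them higher in Yl_5_2 (5.11%) and 39 lower (0.647%). Of the 151 risers, 131 were higher in Yl_5_2 than in Yl_5_3 at an adjusted p-value under 0.05 (36.6% of all tested features were), 3 were lower and 17 showed no called difference. Of the 31 fallers, 21 were lower than in Yl_5_3 (31% of all tested features were), 4 were higher and 6 showed no called difference. The median log2 difference from Yl_5_3 was 0.90 for the risers and -1.10 for the fallers. These features were chosen for their difference from the control and not from Yl_5_3, but the same Yl_5_2 samples enter both comparisons. Shares above those of all tested features are therefore in part built in. Among these features, 8 risers reached the count limit through Yl_5_2 alone and 1 faller through Yl_5_1 alone. They were kept in all counts and medians that involve Yl_5_3.

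Side by side, and with the control samples shared between them, the comparisons with Yl_5_1 gave the 151 risers a median log2 fold change of 1.27 in Yl_5_2 and 0.44 in Yl_5_3. The 31 fallers had medians of -1.42 and -0.35. Of the risers, 91 were also called higher in Yl_5_3 (25.7% of all tested features were), 17 were called lower and 43 were not called. Of the fallers, 19 were called lower in Yl_5_3 (29.8% of all were), 6 higher and 6 not. Over all tested features Yl_5_3 had 3340 changed features (55.4%) and 241 stringent ones (4%), of which 52 rose (0.863%) and 189 fell (3.14%), while Yl_5_2 had 151 stringent rises and 31 stringent falls.

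**Figure D5:**
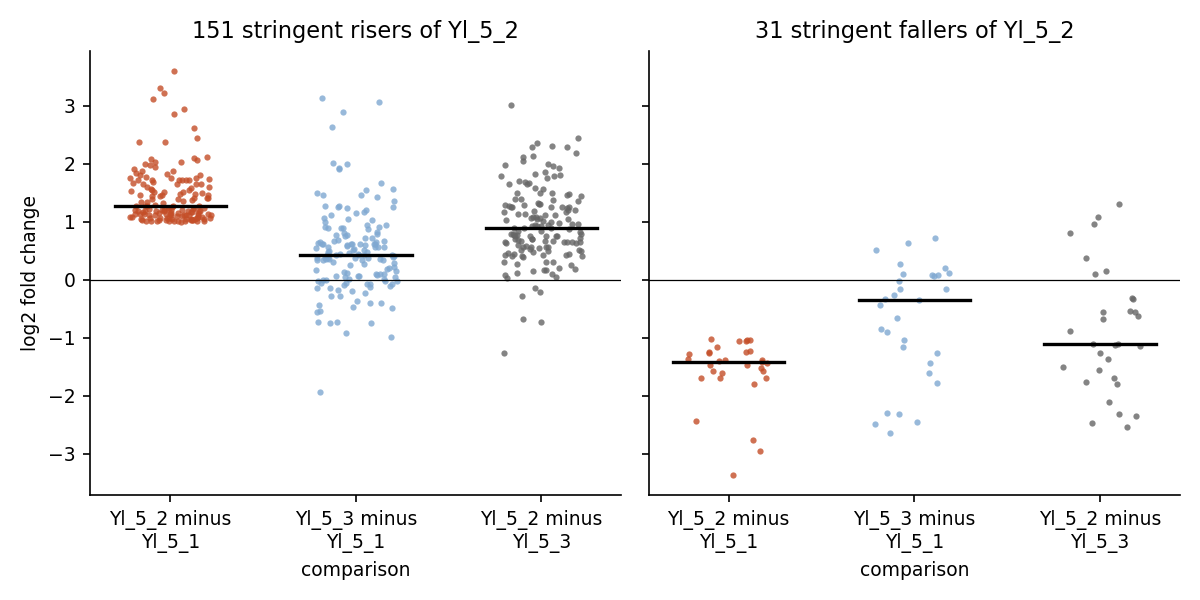
Log2 fold changes of the 151 stringent risers (left) and the 31 stringent fallers (right) of Yl_5_2 in 3 comparisons, with a point per feature and a black line at the median. The first column chose the features and is a description. In the third, direct comparison with Yl_5_3 the medians are 0.90 and -1.10, with points on both sides of 0.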

How the data were processed

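RNA of 3 strains (host alleles lys8-11, leu2-270 and ura3-302), with 3 samples each, was sequenced as paired ends on a HiSeq instrument from NEBNext Ultra libraries. The authors deposited whole-number read counts per feature without normalization, and FPKM values of the same features. The deposited FPKM were found to be counts per feature length and sample total, with no further scaling. The submitters' processing notes list HTSeq 0.6.1 and DESeq 1.18.0. The aligner, the genome build and the strand setting are not given in the sources used here.

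Counts were fitted with edgeR 4.0.16 under R 4.3.3 (TMM scaling, 1 term per strain, all 9 samples, robust quasi-likelihood F test), with Benjamini-Hochberg adjustment over 6026 features. The standard error is the absolute log2 fold change divided by the square root of F. TMM factors were 1.03 to 1.05 in Yl_5_2 and 0.992 to 1.01 in Yl_5_1. The script was tested on simulated data, where it recovered 67 of 100 changes of 0.3 and 98 of 99 changes of 1 on the log2 scale. Of its calls there 5.71% were false, and far fewer features were changed there than were called here. Permutation tests used every split of the 6 values, in SciPy 1.17.1. DESeq2 1.42.0 and limma 3.58.1 on log2(FPKM + 1) and log2(FPKM + 0.1) were alternatives, beside other scalings and filters, the 6 samples alone, a replicate block and leaving out each sample in turn (for Yl_5_3 samples, an alternative chosen after seeing the data). All columns of sample values were used.

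The members and lists were chosen with earlier results of these data known. Named by rule were 2 rises and 2 falls, the largest of the stringent features at 10 CPM or more in the higher strain, with samples that did not overlap, and others were named after their values were seen. Planned gene lists and the genes Yl-SPT15, GUT2 and ACT were not analysed here, because RefSeq assembly ASM176148v1, which holds 5430 of the 5959 accessions, gives locus tags alone. Accessions were matched to it without their version number. Lengths of all accessions with counts are multiples of 3 and are called coding lengths. Replicate samples differed by more than sampling noise, so none was counted as a repeat of another.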

Additional observations from a re-analysis of the deposited data

Results flagged for a closer look

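The named features below had an effect against Yl_5_1 that differed between Yl_5_2 and Yl_5_3 in the direct test (edgeR quasi-likelihood, adjusted p at most 0.000134 in each). They were named by rule or after their values were seen, and the same Yl_5_2 samples enter the direct test. Of all tested features, 67.6% differed in that test at an adjusted p-value under 0.05. No explanation was tested for any of the named features. Higher in Yl_5_2 than in Yl_5_3, by log2 difference, were XM_500826.1 (2.31), XM_503821.1 (2.12), XM_504750.1 (2.05), XM_502242.1 (1.49), XM_500824.1 (1.40), XM_500206.1 (1.26), XM_505246.1 (0.96) and Novel00168 (0.84). Lower in Yl_5_2 were XM_504620.1 (-2.53), XM_499705.1 (-2.47), XM_504118.1 (-2.34), XM_503602.1 (-2.31), XM_502776.1 (-0.72) and XM_501628.1 (-0.38). In 3 of them the effects had opposite directions and both passed the test: against Yl_5_1, XM_500826.1 rose by 1.90 in Yl_5_2 and fell by 0.40 in Yl_5_3, XM_503602.1 fell by 1.80 and rose by 0.51, and XM_502776.1 fell by 0.40 and rose by 0.32, all on the log2 scale.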

How the results depend on the processing

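The counts of changed and of stringent features, in either direction, and of stringent features that differ from Yl_5_3 stayed within 1.5 times their values under every alternative run. DESeq2 called 3212 changed and 186 stringent features among 6024, and the filter of 50 counts in each sample 3345 and 142 among 5703. The fit of the 6 samples of Yl_5_1 and Yl_5_2 alone called 3295 and 182. Leaving out 1 of the 9 samples at a time gave 3178 to 3410 changed (1533 to 1676 higher, 1634 to 1751 lower), 167 to 184 stringent (139 to 154 higher, 28 to 31 lower) and 145 to 163 that differ from Yl_5_3. The share of rises among changed features was 47.7% with TMM factors, 49.3% with median-of-ratios, 50.2% with upper quartile and 61.7% with total counts, and the share among stringent features was 81.0% to 87.1% over all alternatives. The median log2 fold change of the lowest minus the highest level class, 0.35, was 0.28 with the 50-count filter, 0.27 with limma on log2(FPKM + 1) and 0.33 to 0.38 without 1 sample. Over all alternatives the lowest class stayed above 0 (0.15 to 0.26) and the highest below 0 (-0.16 to -0.09). XM_504938.1 passed the 0.05 limit with the replicate block (5.67, adjusted p = 0.017) and without replicate 1 or 3 of Yl_5_2, and its log2 fold change was 1.11 to 6.73 without 1 sample, lowest without replicate 2 of Yl_5_2. With the replicate block 3436 features changed and 178 were stringent. Deviations of same-numbered samples of Yl_5_1 and Yl_5_2 correlated at 0.04, 0.17 and 0.11, and not every sample correlated best with its own number, so the numbers were not taken to pair the samples. The settings intended for gene lists were not run, since no list could be matched. Low features are limited by depth, and 99 of those tested were under 1 CPM in Yl_5_1.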

Other observations

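Over the 6 samples of Yl_5_1 and Yl_5_2, XM_504938.1 and XM_500118.1 had most of their counts in replicate 2 of Yl_5_2. XM_504938.1 had 2, 12 and 5 counts in the samples of Yl_5_1 and 11, 1062 and 15 in those of Yl_5_2, with 95.8% of the scaled counts of the 6 samples in replicate 2 of Yl_5_2. Its log2 fold change of 5.86 ± 2.44 (SE) was the largest fitted for any feature and was not called (edgeR adjusted p = 0.0832). XM_500118.1, which did not reach the count limit, had 116 counts in replicate 2 of Yl_5_2 and 217 in replicate 3 of Yl_5_3, and at most 5 in each of the other 7 samples, so that over all 9 samples 34.3% of its counts were in the sample of Yl_5_2.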
